A study of Mus musculus with 2 samples.

Results

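The forkhead (Fox) genes encode transcription factors that share the forkhead DNA-binding domain, and a list of 39 mouse Fox genes was looked up by symbol among the H3K27me3 regions of rib chondrocytes. Of these 39 genes, 12 were named by at least 1 region, and 16 of the 2017 listed regions named them. Foxf1 stands in the list under its older symbol, Foxf1a, and was counted as Foxf1. The list names a gene for a region that overlaps it or lies within 5000 bp of it.

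H3K27me3 was mapped by chromatin immunoprecipitation and sequencing (ChIP-seq) in wild-type (wt) chondrocytes of CD1 mice, and the data used here hold 1 ChIP library and 1 input library and no replicates. The cells were the pooled rib chondrocytes of 11 animals aged p2.5, kept overnight in culture with 5% FCS, as the labels give it, on 2 dishes of 10 cm, so that differences between animals cannot be seen. The input library was made from 2% of the same chromatin without the antibody. Both libraries therefore share every animal and the culture, and the assay holds no mutant and no treated group. The labels call the cells chondrocytes, and since the assay does not measure expression, that label could only be looked up indirectly: 0 of 16 chondrocyte genes fixed as markers, among them Sox9, Col2a1 and Acan, were named by a region. Among markers of other lineages, 1 of 5 muscle genes, 3 of 6 neuronal genes and 4 of 6 endodermal genes were named. Since 3.90% of all protein-coding genes were named, the 0 of 16 lies near that share and says little about the label.

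H3K27me3 is a trimethyl mark on histone H3 that the polycomb complex PRC2 places on the chromatin of silenced genes. It is best known from CpG-rich stretches at regulators of development, where it keeps genes of other lineages off. The Fox family is a mixture of such regulators and of factors that most cells use. Subfamilies A to F, I, L, Q and S are known mainly as regulators of particular embryonic tissues, while subfamilies H, J, K, M, N, O and P hold many broadly used factors, such as the FoxO factors downstream of insulin and Foxm1 of the cell cycle.

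The share of Fox genes with a region was 30.8% (12 of 39), and 3.90% of the 21896 protein-coding genes in RefSeq were named by a region. In subfamilies A to F, I, L, Q and S, 10 of 20 genes had a region, namely Foxa1, Foxb1, Foxb2, Foxd2, Foxd3, Foxd4, Foxe1, Foxf1, Foxf2 and Foxl2. In subfamilies H, J, K, M, N, O and P, 2 of 19 genes had one, Foxn4 and Foxo6. The split was made by subfamily letter, with earlier results of these data known. It does not part restricted from broadly used factors cleanly, and "developmental subfamilies" below is only a label for the group of 20. The group of 19 also holds factors of particular tissues or cells, among them Foxj1, Foxn1, Foxp3, Foxn4 and Foxo6. In the B and F subfamilies both genes had a region, and in the D subfamily 3 of 4 did, the exception being Foxd1. In the A subfamily of endodermal pioneer factors Foxa1 had a region, whereas Foxa2 and Foxa3 had none.

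No region was listed for the other genes of the developmental subfamilies: Foxc1 and Foxc2, factors of skeletal and vascular mesenchyme, the lens factor Foxe3, Foxi1 of the inner ear and kidney, the gut mesenchyme factor Foxl1, Foxq1 and Foxs1. The same held for Foxh1, a partner of Smad proteins, Foxj1, the factor of motile cilia, Foxj2, Foxj3, Foxk1, Foxk2 and Foxm1. It held also for Foxn1 of the thymus epithelium, Foxn2 and Foxn3, for Foxo1, Foxo3 and Foxo4, and for Foxp1, Foxp2, Foxp3 and Foxp4, of which Foxp3 is the factor of regulatory T cells. The smoothed ChIP profile of a listed region reached a height of at least 8.0, and the listed regions held at least 20 ChIP tags. A weaker mark at these 27 genes was not detectable in this list. Nor would a region more than 5000 bp from a gene, however strong, name it. Such farther regions were not looked for around these 27 genes. The study also drew on a further ChIP-seq experiment that was not analysed here, so having no region refers to this list alone, as do the shares of genes named. With both experiments, the paper counted many more genes associated with H3K27me3 than the 922 names in this list.

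The regions at Fox genes mostly lay beside the gene rather than on it. Of the 16 regions, 6 lay 5′ of the gene, 1 covered the 5′ end, 3 lay inside the gene beyond its 5′ end and 6 lay 3′ of it. Over all 1535 pairs of a region and a named gene, 26.8% lay 5′ of the gene, 6.06% covered the 5′ end, 50.9% lay inside and 16.3% lay 3′ of it. Overlap with the gene was thus found for 4 of 16 Fox regions (25%) and for 56.9% of all pairs. Counted by gene, 3 of 39 Fox genes (Foxb1, Foxn4 and Foxo6) were overlapped by a region, as were 2.53% of protein-coding genes. The distance from the 5′ end to the 3′ end, which follows from the listed distances where a region lies 3′ of the gene, was 1115 bp at Foxe1, 1514 bp at Foxb2, 2344 bp at Foxd4, 2405 bp at Foxf1, 2517 bp at Foxl2 and 2618 bp at Foxd2. The share that lies inside a gene was not adjusted for gene length, whose part in it was not tested. Within 2500 bp of the 5′ end lay 7 of 16 Fox regions (43.8%), and 40.7% of all pairs did. They named 6 of 39 Fox genes, and 2.20% of protein-coding genes had a region that near.

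**Figure D1:**
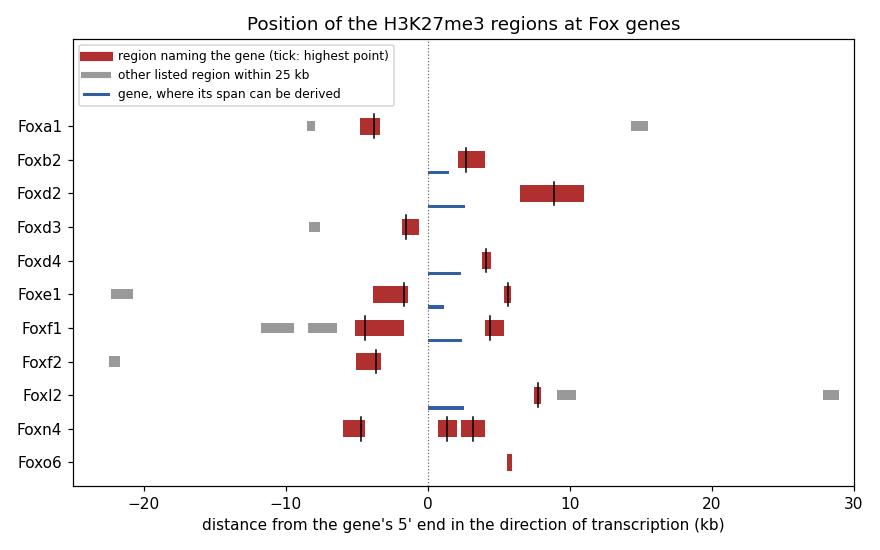
Position of the H3K27me3 regions (mm9) at 11 Fox genes, as the distance in kb from the 5′ end of the gene in the direction of transcription. Red bars are regions that name the gene with a tick at the highest point of the profile (no tick for Foxo6), grey bars are other listed regions within 25000 bp of them, and blue bars are the genes whose span could be derived. Foxb1, whose region covers the 5′ end, is not drawn because its strand was not in the tables used. Regions lie 5′ of the gene at Foxa1, Foxd3, Foxe1, Foxf1, Foxf2 and Foxn4, and 3′ of it at Foxb2, Foxd2, Foxd4, Foxe1, Foxf1 and Foxl2.

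Foxf1, a factor of the mesoderm around gut and lung, was the Fox gene with the most ChIP tags. Its 5′ region, chr8:123603252-123606682 (mm9), was 3431 bp long, ended 1692 bp before the gene and held 177 ChIP tags against 18 of input. Its 3′ region, chr8:123612407-123613718, was 1312 bp long and held 69 ChIP tags against 12 of input. Both distances place the 5′ end of the gene at position 123608374 on the plus strand. The 5′ region ranked 91 of 2017 in the caller's order, the best rank of a Fox region. The ratio of ChIP to input tags was 9.83 in the 5′ region (95% Clopper-Pearson interval 6.04 to 17.0) and 5.75 in the 3′ region (3.09 to 11.7). No difference beyond counting error was detected (two-sided Fisher's exact test, adjusted p = 0.339 over 5 pairs of regions within a gene, a comparison chosen after the values were seen).

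Foxf2, the paralog of Foxf1 with a role in palate and gut mesenchyme, had 1 region, chr13:31712603-31714358, which ended 3327 bp before the gene. It held 110 ChIP tags against 14 of input over 1756 bp. With 62.6 ChIP tags per kb it was among the densest Fox regions, and 88.7% of all listed regions were less dense. The input profile reached a height of 2.06 within it, the highest of the Fox regions.

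Among the FoxD genes, Foxd2, a factor of kidney and craniofacial mesenchyme, had the longest Fox region. It spanned 4516 bp at chr4:114570480-114574995, 3890 bp beyond the 3′ end of the gene, and was longer than 98.8% of all listed regions. It held 201 ChIP tags against 32 of input, which is the highest tag number of a Fox region but, at 44.5 ChIP tags per kb, the lowest density. Foxd3, a factor of neural crest and pluripotent cells, had a region of 1232 bp at chr4:99321166-99322397 that ended 593 bp before the gene, with 68 ChIP tags against 6 of input. Foxd4 had a region of 601 bp at chr19:24971374-24971974, 1481 bp beyond its 3′ end, with 38 ChIP tags against 4 of input. Foxd4 had the tallest Fox profile, with a ChIP height of 10.5, and the densest, with 63.2 ChIP tags per kb. It was the only Fox region with a height of at least 10, which 13.1% of all listed regions reached. By gene that is 1 of 39 Fox genes, and 0.708% of protein-coding genes.

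Foxe1, a factor of thyroid and palate, had regions on either side. The 5′ region, chr4:46353170-46355681, held 121 ChIP tags against 19 of input over 2512 bp and ended 1385 bp before the gene. The 3′ region, chr4:46362407-46362943, was 537 bp long, lay 4226 bp beyond the gene and held 30 ChIP tags against 6 of input. It was the only Fox region in which the caller used the measured input, since at 11.2 input tags per kb it lay above the caller's floor of 9.20. Their ratios of 6.37 (95% Clopper-Pearson interval 3.91 to 10.9) and 5.00 (2.05 to 14.7) showed no difference beyond counting error (two-sided Fisher's exact test, adjusted p = 0.751).

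The endodermal factor Foxa1 had a region of 1410 bp at chr12:58650487-58651896, which ended 3379 bp before the gene and held 81 ChIP tags against 11 of input. Foxb1, a factor of the hypothalamus and midbrain, had the only Fox region that covered a 5′ end. This region, chr9:69606624-69608992, held 135 ChIP tags against 10 of input over 2369 bp. Its paralog Foxb2, also a neural factor, had a region of 1850 bp at chr19:16944315-16946164, 642 bp beyond its 3′ end, with 94 ChIP tags against 8 of input. Foxl2, the factor of ovary and eyelid, had a region of 498 bp at chr9:98863522-98864019, which lay 4979 bp beyond the 3′ end and thus at the edge of the distance within which genes are named. It held 26 ChIP tags against 0 of input, a count that allows up to 3 tags.

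Foxn4, a factor of retinal progenitors and spinal interneurons, had 3 regions on chromosome 5, the largest number at a Fox gene. The region nearest the 5′ end, chr5:114721684-114723073, lay inside the gene 697 bp from that end and held 77 ChIP tags against 1 of input over 1390 bp. The region next to it inside the gene, chr5:114719737-114721416, held 82 ChIP tags against 14 of input over 1680 bp. The 5′ region, chr5:114728175-114729756, ended 4405 bp before the gene and held 76 ChIP tags against 13 of input over 1582 bp. All 3 distances place the 5′ end at position 114723770 on the minus strand. ChIP tags were close to equal in the 3 regions, and input tags were low in the region nearest the 5′ end alone. Its ratio of 77.0 (95% Clopper-Pearson interval 13.4 to 3080) lay above those of the other two, 5.86 (3.30 to 11.2) and 5.85 (3.22 to 11.5), by a two-sided Fisher's exact test (adjusted p = 0.00466 for each, over the same 5 pairs chosen after the values were seen). The ratio rests on 1 input tag, and the comparison is one of tags in these libraries.

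Foxo6, the FoxO gene of the brain, had the Fox region with the fewest ChIP tags. This region, chr4:119953944-119954322, lay inside the gene 5544 bp from its 5′ end. It was 379 bp long and held 22 ChIP tags against 3 of input, a ratio of 7.33 (95% Clopper-Pearson interval 2.20 to 38.3). Only 0.149% of listed regions held fewer ChIP tags, and it ranked 2005 of 2017.

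**Figure D2:**
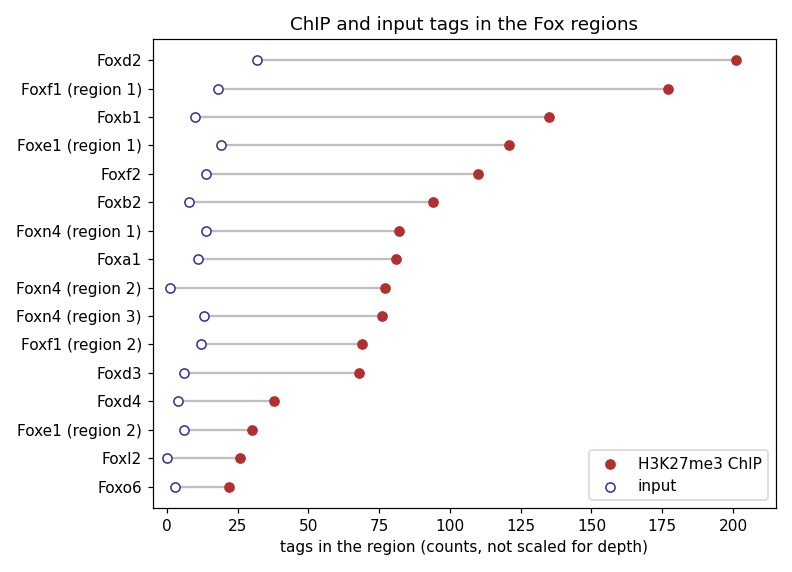
ChIP tags (red) and input tags (open blue) in each of the 16 Fox regions, in tags per region and not scaled for library depth, ordered by ChIP tags; regions of a gene are numbered along the chromosome. ChIP tags range from 22 at Foxo6 to 201 at Foxd2, and input tags from 0 at Foxl2 to 32 at Foxd2.

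ChIP tags exceeded input tags in all 16 Fox regions, which were called for a high ChIP profile. Over the 16 regions, 1407 ChIP tags against 171 of input gave a ratio of 8.23 (95% Clopper-Pearson interval 7.02 to 9.70), and over all 2017 regions 143822 and 19260 tags gave 7.47 (7.36 to 7.58). Between the Fox regions and the 2001 other regions no difference in this ratio was detected beyond counting error (two-sided Fisher's exact test, p = 0.240). None of these ratios is scaled for the depth of the libraries, whose total tag numbers are not given in the list. Intervals and tests treat tags as independent and cover counting error alone.

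Gene by gene, the ratio was highest at Foxb1, with 13.5 (7.12 to 28.8), followed by Foxb2 with 11.8 (5.72 to 28.0) and Foxd3 with 11.3 (4.95 to 32.0). Foxl2, without an input tag, has no ratio, and the lower bound of its interval was 6.56. The lowest ratios were 6.04 at Foxe1 (3.94 to 9.63) and 6.28 at Foxd2 (4.31 to 9.43). Between them lay Foxd4 with 9.50 (3.42 to 36.6), Foxn4 with 8.39 (5.66 to 12.9), Foxf1 with 8.20 (5.60 to 12.4), Foxf2 with 7.86 (4.49 to 14.8), Foxa1 with 7.36 (3.91 to 15.3) and Foxo6. Each of the 12 intervals held the 7.47 of all regions together. Of the 66 pairs of Fox genes, 0 differed after adjustment (two-sided Fisher's exact test, lowest adjusted p = 0.859) and 3 had an unadjusted p under 0.05. With so few input tags the order of the genes by ratio could not be resolved.

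**Figure D3:**
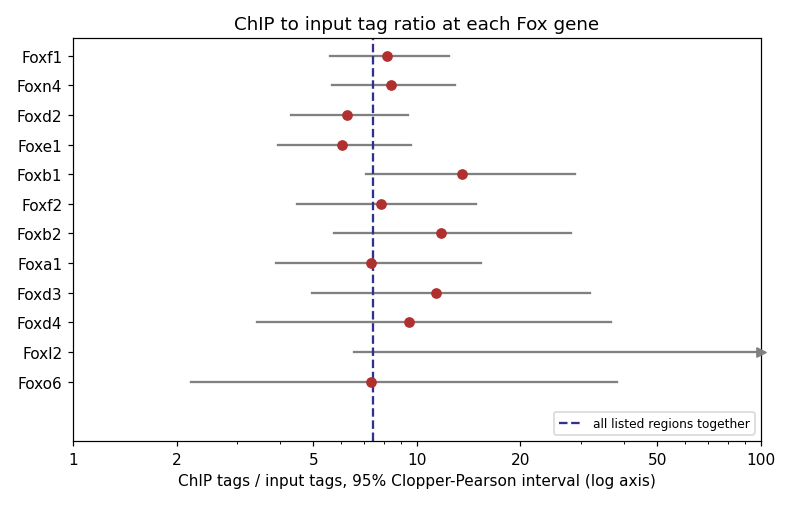
Ratio of ChIP to input tags at each of the 12 Fox genes (log axis), over all regions that name the gene, with 95% Clopper-Pearson intervals and genes ordered by ChIP tags. The dashed line is the ratio of all listed regions together, 7.47, which every interval includes; the arrow at Foxl2 marks an interval without an upper bound.

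The Fox regions were also split by distance from the 5′ end. The 7 regions within 2500 bp of the 5′ end held 754 ChIP tags against 76 of input, a ratio of 9.92 (95% Clopper-Pearson interval 7.83 to 12.7), and the other 9 held 653 and 95, a ratio of 6.87 (5.54 to 8.62; two-sided Fisher's exact test, p = 0.0283). Without the Foxn4 region that has 1 input tag, the ratio near the 5′ end was 9.03 (7.10 to 11.6) and the difference was no longer past the threshold (Fisher's exact test, p = 0.103). Over all regions that name a gene, the ratios were 7.71 (7.51 to 7.93) within 2500 bp and 7.63 (7.43 to 7.84) farther away (Fisher's exact test, p = 0.582). This comparison was chosen after the values were seen.

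The Fox regions were somewhat long for this list, with a median length of 1496 bp against 1067 bp over all regions. They ranged from 379 to 4516 bp, and 4 of 16 (25%), those of Foxd2, Foxf1, Foxe1 and Foxb1, were at least 2000 bp long, as were 16.5% of all regions. Their median was 79 ChIP tags per region, with 10.5 for input, against 56 and 7 in the whole list. Per length the values were close: the median density was 53.9 ChIP tags per kb in Fox regions and 54.4 in all. The tag enrichment that the list gives, ChIP tags over input tags or over the floor of 9.20 input tags per kb where the input is lower, had a median of 5.69 in Fox regions, from 4.84 at Foxd2 to 6.87 at Foxd4, and of 5.70 in all. In 15 of 16 Fox regions the floor was used (76.9% of all regions), so that their tag enrichment follows the density of ChIP tags and not the measured input. The median ChIP height was 8.67 in Fox regions and 8.68 in all.

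**Figure D4:**
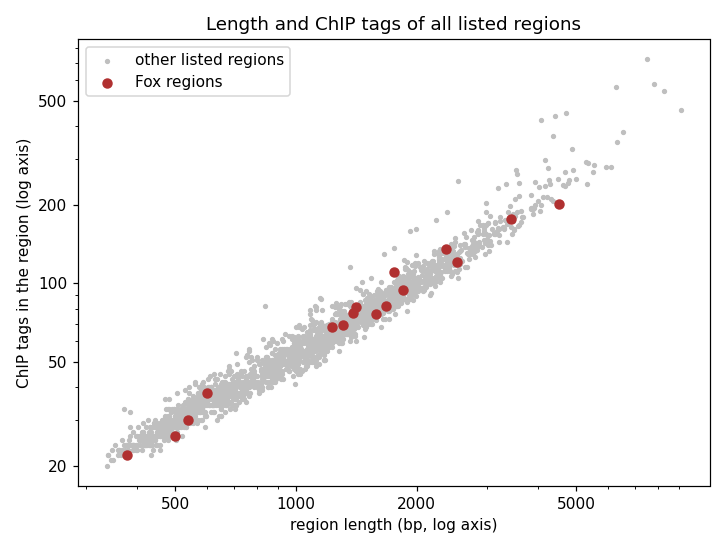
Length (bp) and ChIP tags of the 2017 listed regions on log axes, with the 16 Fox regions in red and the others in grey. The Fox regions lie along the cloud of the other regions, from 379 bp and 22 ChIP tags at Foxo6 to 4516 bp and 201 ChIP tags at Foxd2.

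At 7 of the 12 Fox genes, further listed regions lay within 25000 bp of the named ones, a window chosen after the values were seen. These 11 regions held 769 ChIP tags against 91 of input, and 10 of them named no gene, since the list names genes within 5000 bp. Foxf1 had the most regions in all: 2 further regions upstream, chr8:123596634-123598919 with 110 ChIP tags against 15 of input and chr8:123599935-123601949 with 120 and 6, ended 9455 and 6425 bp before the 5′ end. With them, 4 separate regions lay within a stretch of 17085 bp, measured from the outermost ends. This stretch includes the gaps between the regions, and the gene itself lies in such a gap. Together the 4 regions held 476 ChIP tags and 51 of input, and their ratio was 9.33 (6.98 to 12.7 as the 95% Clopper-Pearson interval). At Foxb1, 2 further regions, chr9:69615299-69616548 with 81 ChIP tags against 5 of input and chr9:69619061-69620205 with 70 and 8, lay on the same side of the region that covers the 5′ end. At Foxa1, a region with 64 ChIP tags against 2 of input lay 14308 bp beyond the 5′ end and another with 32 and 0 lay 7979 bp before it. At Foxl2, 65 ChIP tags against 8 of input lay in a region 9086 bp beyond its 5′ end, and 57 against 17 in another, which named Faim. Foxd3, Foxe1 and Foxf2 had 1 further region each, with 48, 81 and 41 ChIP tags and 7, 15 and 8 input tags. Of the 16 Fox regions, 12 (75.0%) had another listed region within 25000 bp, as did 69.4% of all regions.

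Several Fox genes lie side by side in the genome, and in each of these linked sets 1 gene was named and its neighbours were not. In the set of Foxf1, Foxc2 and Foxl1 the regions named Foxf1. In the set of Foxq1, Foxf2 and Foxc1 they named Foxf2, and in the pair of Foxd2 and Foxe3 they named Foxd2. No Fox region named a further gene. The further region 5′ of Foxf2, chr13:31695221-31696016, lay 21669 bp before its 5′ end and named no gene.

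Other families of developmental transcription factors were set beside the Fox genes by count. A region was listed for all 8 Lhx genes on the list used, 8 of 9 Pax genes and 11 of 16 T-box genes. Among Fox genes 12 of 39 had one, and 3.90% of all protein-coding genes did. In Fox subfamilies A to F, I, L, Q and S, 10 of 20 had one, a grouping by letter made with earlier results known. The difference between families was not tested. The median region length was 1496 bp at Fox genes, 1447 bp at Lhx genes, 1319 bp at Pax genes and 1139 bp at T-box genes, against 1067 bp over all regions. A length above that of the whole list was thus not particular to the Fox genes. The ratios of ChIP to input tags were close: 8.23 (95% Clopper-Pearson interval 7.02 to 9.70) at Fox genes, 7.65 (6.70 to 8.76) at Pax genes, 7.73 (6.82 to 8.79) at Lhx genes and 7.83 (6.84 to 9.01) at T-box genes, with intervals that overlap.

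To show the kind of sequence next to these regions, promoter windows of 300 bases were read from a RefSeq table (GRCm38.p6, from 250 bases before the start of the gene to 50 after it). Positions of this build are not those of the mm9 regions and were never compared with them. The table held windows for 24 of the 39 genes (61.5%), 8 with a region and 16 without, so that a comparison of base composition over the family is void, and values are given for single genes. The windows of Foxd3 and Foxn4 are printed because their regions came within 593 and 697 bp of the 5′ end, and that of Foxi1, a gene without a region, because no Fox window held fewer CpG dinucleotides (6, shared with Foxn3 and Foxp3). Capitals mark CpG. The windows lie at chr4:99656049-99656348 on the plus strand, chr5:114273712-114274011 on the minus strand and chr11:34208040-34208339 on the minus strand.
Foxd3: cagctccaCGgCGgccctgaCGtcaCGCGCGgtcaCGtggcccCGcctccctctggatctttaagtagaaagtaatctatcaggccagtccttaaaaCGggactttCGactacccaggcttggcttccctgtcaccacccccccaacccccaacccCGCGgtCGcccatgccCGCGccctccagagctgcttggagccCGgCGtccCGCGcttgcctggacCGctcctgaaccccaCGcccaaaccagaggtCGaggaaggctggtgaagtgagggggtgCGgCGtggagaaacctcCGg
Foxn4: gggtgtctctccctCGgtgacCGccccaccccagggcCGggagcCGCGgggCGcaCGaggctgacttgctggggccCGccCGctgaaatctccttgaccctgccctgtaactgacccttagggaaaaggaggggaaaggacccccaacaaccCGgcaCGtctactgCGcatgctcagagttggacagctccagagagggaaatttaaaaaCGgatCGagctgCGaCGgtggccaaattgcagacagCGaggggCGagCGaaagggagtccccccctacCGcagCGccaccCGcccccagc
Foxi1: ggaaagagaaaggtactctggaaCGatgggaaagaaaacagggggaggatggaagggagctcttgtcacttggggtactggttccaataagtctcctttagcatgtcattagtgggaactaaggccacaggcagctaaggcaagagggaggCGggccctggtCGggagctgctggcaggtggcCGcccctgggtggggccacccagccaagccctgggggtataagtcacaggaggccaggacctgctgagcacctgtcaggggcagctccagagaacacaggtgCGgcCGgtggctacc

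The Foxd3 window held 25 CpG and the Foxn4 window 22. Relative to the number that its C and G content would give by chance placement (CpG observed over expected), Foxd3 had 0.793, Foxn4 0.688 and Foxi1 0.232. In the 8 windows of genes with a region, this value ran from 0.502 at Foxb2 to 0.929 at Foxa1. In the 16 windows of genes without a region, it ran from 0.232 at Foxi1 to 1.28 at Foxk2, which held 59 CpG. Foxi1 is thus the lowest of its set, and the printed windows do not stand for genes with and without a region. The word TGTTTAC, a forkhead binding sequence, was found on either strand in the window of Foxa1 alone, 1 of 24 Fox windows, and in 3.55% of all 27025 promoter windows. The word TATAAA was found on the plus strand in 2 of 24, those of Foxa3 and Foxp3, and in 8.88% of all windows. These are matches of letters in a short window and say nothing of binding.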

How the data were processed

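The authors mapped the reads of 1 H3K27me3 ChIP library and 1 input library to the mouse genome build mm9 with the DNA Nexus mapper and called regions with QuEST. Settings and versions are not given in the sources used here. The deposited list gives counts of ChIP and input tags per region, unscaled, as whole numbers. The deposited signal height is the peak of the smoothed profile. The deposited tag enrichment is a ratio whose input has a floor of 9.20 tags per kb. This floor was recovered from the values, and it was constant only when a region's length was taken as right minus left plus 1. The authors' q-values are deposited on the −log10 scale. Whether positions count from 0 or 1 is not stated.

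Regions were matched to the 39 Fox genes by symbol and by unique RefSeq synonyms (GRCm38.p6, names only), which matched 912 of the 922 gene names in the list. All Fox genes with a region are described, and those without are named by subfamily. Ratios of ChIP to input tags were given 95% Clopper-Pearson intervals, and pairs were compared with two-sided Fisher's exact tests with Benjamini-Hochberg adjustment. The intervals and the Fisher's exact test, without the adjustment, were run on simulated tags drawn independently. That simulation shares their assumption of independent tags and cannot check it. The strand came from the regions of a gene where several fix it, and otherwise from the RefSeq promoter table. Precision is limited by tag number, at the median 56 (ChIP) and 7 (input) a region; intervals cover counting error only, since reads without molecular identifiers are not independent molecules. The members, lists and limits were chosen with earlier results of these data known. Calculations ran in Python 3.11.15 with scipy 1.17.1, pandas 2.3.3 and numpy 2.4.6, and figures were drawn with matplotlib 3.10.9.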

Additional observations from a re-analysis of the deposited data

Results flagged for a closer look

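Foxi2, a Fox gene outside the list of 39, was named by 2 regions on chromosome 7 (mm9), chr7:142603889-142604794 inside the gene and chr7:142605982-142606696 beyond its 3′ end, and was singled out after its values were seen because no comparison used it. The regions held 47 and 43 ChIP tags and 9 and 8 input tags, a ratio of 5.29 together (95% Clopper-Pearson interval 3.13 to 9.49), which lay above 1 as at every listed region.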

How the results depend on the processing

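With a ChIP height of at least 10, 1 Fox gene (Foxd4), 1 region and 601 bp were left against 12, 16 and 27055 bp, with 1 gene of the developmental subfamilies and 0 of the others; the median tag enrichment was then 6.87 and 0% of regions overlapped the gene. With only regions overlapping the gene, 3 genes, 4 regions and 5818 bp were left, 1 gene of them in the developmental subfamilies, and the ratio was 11.3. Keeping regions no farther than 2500 bp from the 5′ end, 6 genes, 7 regions and 14464 bp were left, with 5 genes of the developmental subfamilies and 1 of the others, and the ratio was 9.92. A −log10 q-value of at least 50 left 1 gene of the other subfamilies. These limits keep fewer regions by construction. Of 83 recomputed values 64 stayed within 1.5 times the main count or within the main value's interval and 19 moved, and 0 of the 41 values at single genes moved. A gene's ratio is unchanged by construction where a setting drops none of its regions, and genes left without a region were not counted. The counts of values that stayed therefore say little about how firm the ratios at single genes are. Taking symbols letter by letter, chosen after seeing the data, gave 11 genes, and merging regions within 3000 bp gave 15 regions. Requiring input below 2 times the floor left out no Fox region. No paired analysis was possible because there is 1 ChIP and 1 input library, which also left no library to leave out.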
